A study of Mus musculus with 7 samples.

Results

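At 6 weeks of age, the gastrocnemius was compared with the mean of 4 and 8 weeks, so that a gene stands out when its level at 6 weeks departs from the average of the other ages. The comparison set the 2 libraries at 6 weeks, of 7 in the series, against 2 at 4 weeks and 3 at 8 weeks. Every library came from a male C57Bl6/J mouse, and the younger and the older age had equal weight. The 4-week and 6-week libraries are titled as plain gastrocnemius, whereas the 8-week libraries carry the title Ctl, the name the study uses for CreER-negative littermates in its tamoxifen experiments. Their exact genotype and treatment are not given in the labels, so age and any such difference cannot be told apart at 8 weeks. The gastrocnemius is a calf muscle made mostly of fast fibers, and the fiber genes Acta1, Ckm, Myh4, Myh1, Tnnt3 and Pvalb were abundant in every library, from 1202 CPM for Myh1 to 42291 CPM for Myh4. A library held 30836057 to 41784144 counts, and 25.1% to 37.4% of them belonged to mt-Rnr2, a ribosomal RNA of mitochondria. CPM are counts scaled to a common library size, with TMM factors. In whole muscle, fewer cells of a type and less RNA per cell cannot be told apart.

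Between weaning and adulthood, fibers enlarge, satellite cells stop adding nuclei, and the connective tissue, capillaries and nerve sheaths mature. A gene that follows this course moves in one direction with age. A transient level, high or low at the middle age alone, is one that can be met in transcripts that respond to short-lived states, among them immediate early genes, which react to activity and handling, and glucocorticoid or fasting responsive genes. Ddit4, also called Redd1, belongs to the last class and encodes a stress-induced inhibitor of mTORC1, the kinase complex that drives protein synthesis and growth.

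Of 14976 genes with enough counts, 14 departed from the mean of 4 and 8 weeks at an adjusted p under 0.05 (edgeR quasi-likelihood test, Benjamini-Hochberg adjustment over all genes tested), 0.0935% of those tested. There were 10 higher genes (0.0668%) and 4 lower genes (0.0267%). The higher genes were Ddit4, Asb15, Gm38034, Rhob, Tfcp2l1, Ifi205, Spsb1, Muc4, Gm28783 and Tns2, and the lower genes were Tceal7, Acta2, Serpinh1 and Pmp22. The 6-week mean lay outside both other ages for 13 of the 14. It did not for Acta2. This count goes by the order of the means alone, whatever the distance. By the same rule, the 6-week mean lay above both ages for 3750 of all 14976 genes tested and below both for 4332. Of the 13, Serpinh1 and Tfcp2l1 differed little between 6 and 8 weeks. Their log2 differences of 6 from 8 weeks were -0.01 and 0.09 (adjusted p = 0.977 and 0.832, edgeR quasi-likelihood test). At an unadjusted p under 0.05 there were 1821 genes, of which 883 were higher (5.9%) and 938 lower (6.26%). The median difference over all genes was -0.01 on the log2 scale. With library totals in place of TMM factors the split was 37 higher and 2 lower.

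The number of genes called depended strongly on the libraries and on the test. It was 8 without replicate 1 at 4 weeks, 14 without replicate 2 at 4 weeks, 4 and 6 without replicate 1 and replicate 2 at 6 weeks, and 7, 38 and 137 without replicates 1, 2 and 3 at 8 weeks. DESeq2's Wald test on the same counts called 81 higher and 63 lower genes. All 14 genes were among those 144.

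The called genes fell into a peaked and a shifted kind when 6 weeks was set against each age by itself. These comparisons share the 6-week libraries, and the contrast that selected the genes combines them, so they describe the shape of a called gene and are no second test of it. Against 4 weeks, 471 genes were higher (3.15%) and 563 lower (3.76%). Against 8 weeks, 23 genes were higher (0.154%) and 5 lower (0.0334%). Of the 14 genes, 4 passed against both ages, 2 against 8 weeks only and 8 against 4 weeks only. The split depends partly on the adjustment, which was made for each comparison separately and was harder to pass against 8 weeks. Against 8 weeks, Gm28783, Tns2 and Pmp22 had unadjusted p of 0.0056, 0.006 and 0.0065 in the same test. Their adjusted p were 0.217, 0.222 and 0.231. No gene was low against both ages at the threshold, and 5 were high against both: Ddit4, Gm38034, Ifi205, Muc4 and Gm14236, the last with an adjusted p of 0.057 in the combined contrast. DESeq2's Wald test gave 22 high and 5 low against both ages, and these 5 high genes were among them. The result against both ages rested on single libraries. None of the 5 genes passed against both ages without replicate 1 at 4 weeks, without replicate 2 at 4 weeks or without replicate 2 at 6 weeks, and 3 did without replicate 1 at 6 weeks and 2 without replicate 1 at 8 weeks. All 5 did without replicate 2 or replicate 3 at 8 weeks.

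**Figure D1:**
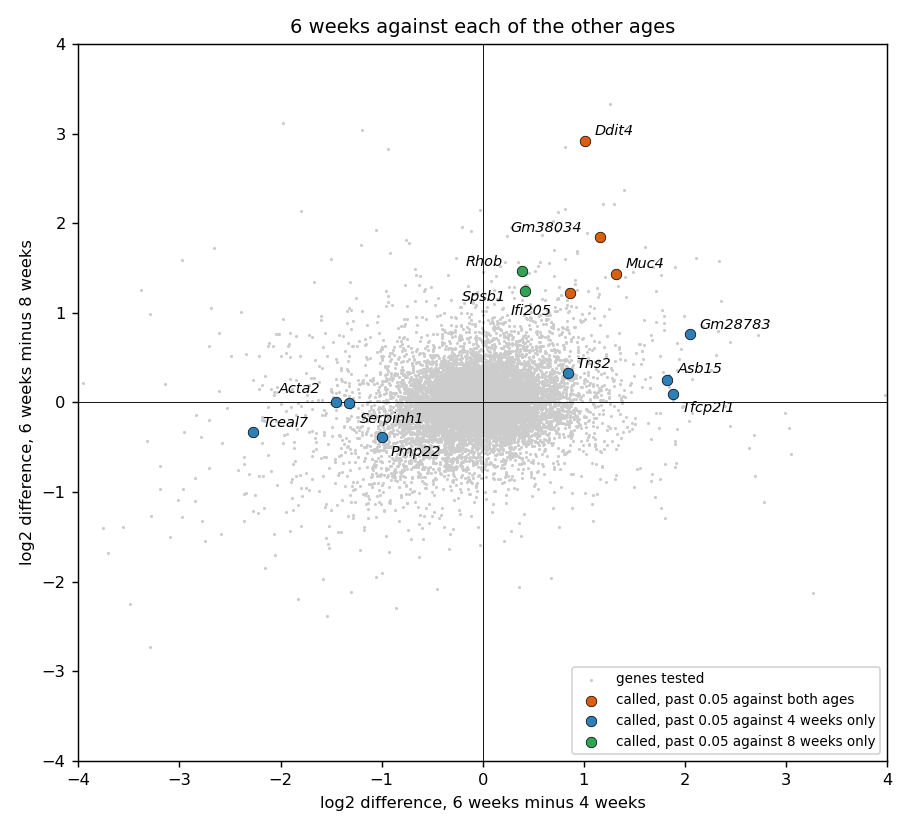
Log2 difference of 6 weeks from 4 weeks (x axis) and from 8 weeks (y axis) for the genes tested, with 9 genes beyond the axes. Genes called against the mean of both ages are colored by the age they also passed against: Ddit4, Gm38034, Ifi205 and Muc4 lie in the upper right, whereas the 8 genes that passed against 4 weeks only, 4 of them lower, lie nearer the horizontal line.

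Ddit4 had the smallest p of all genes tested. Its libraries held 16.4 and 17.4 CPM at 4 weeks, 27.3 and 40.9 CPM at 6 weeks, and 4.77, 3.88 and 4.85 CPM at 8 weeks. The 3 ages did not overlap, and 8 weeks was the lowest. The level at 6 weeks was 2.02-fold that at 4 weeks and 7.58-fold that at 8 weeks, with a log2 difference of 1.97 ± 0.139 (SE) from the mean of both (adjusted p = 0.000227). Ddit4 was called without any 1 of the 7 libraries, with a highest adjusted p of 0.00353. By itself, however, its step from 4 weeks did not pass without replicate 1 at 4 weeks (adjusted p = 0.0604), replicate 2 at 4 weeks (0.0813) or replicate 2 at 6 weeks (0.0518). The 6-week libraries differed from each other by more than those of the other ages.

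The letters just upstream are shown for Ddit4, which passed against both ages, and Rhob, which passed against 8 weeks only, both from RefSeq windows of GRCm38.p6 in the 5′ to 3′ direction of the gene, cut where the GENCODE gene body begins. Capitals mark CCAAT boxes (CCAAT on either strand) and GC boxes (GGGCGG on either strand). The first lies at chr10:59951835-59952020 on the minus strand of chromosome 10 and the second at chr12:8500010-8500259 on the minus strand of chromosome 12.
Ddit4: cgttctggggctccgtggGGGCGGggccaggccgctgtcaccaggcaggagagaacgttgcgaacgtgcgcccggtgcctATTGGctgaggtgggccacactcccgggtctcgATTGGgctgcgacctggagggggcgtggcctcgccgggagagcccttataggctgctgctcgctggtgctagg
Rhob: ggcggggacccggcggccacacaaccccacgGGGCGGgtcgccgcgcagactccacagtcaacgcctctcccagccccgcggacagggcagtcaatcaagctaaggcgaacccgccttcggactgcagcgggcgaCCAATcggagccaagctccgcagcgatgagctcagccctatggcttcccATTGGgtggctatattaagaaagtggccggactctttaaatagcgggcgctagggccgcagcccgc
Both held 2 CCAAT boxes and 1 GC box. Among all tested genes with a window, 39.8% had a CCAAT box and 62.8% a GC box within 250 bases of the start. Of the 12 called genes with a window, 3 had a CCAAT box (Ddit4, Rhob and Pmp22) and 5 a GC box. A match is a description of the letters and not a measured site.

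Gm38034 followed the same course as Ddit4 at a lower level. It had 3.85 and 4.85 CPM at 4 weeks, 7.89 and 11.5 CPM at 6 weeks, and 2.37, 2.59 and 3.21 CPM at 8 weeks, without overlap between ages (log2 difference 1.5 ± 0.167, adjusted p = 0.00878). This gene model of unassigned type spans 52282241 to 52284309 on the plus strand of chromosome 3 (GRCm38) and lies inside Foxo1 on the same strand, so reads of the 2 genes may not be separable. Foxo1, a transcription factor of the fasting response, had 12.3 and 11.6 CPM at 4 weeks, 14.3 and 23.2 CPM at 6 weeks, and 12.7, 14 and 13.7 CPM at 8 weeks, and did not pass (log2 difference 0.57, adjusted p = 0.175). In all 3 genes the second 6-week library was the highest. Without that library Gm38034 was not called (adjusted p = 0.0744).

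Ifi205 and Muc4 had a similar level at 4 and 8 weeks and a higher one at 6 weeks. Ifi205, a member of the interferon-inducible PYHIN family, had 6.45 and 5.95 CPM at 4 weeks, 8.85 and 13.7 CPM at 6 weeks, and 5.04, 4.84 and 4.65 CPM at 8 weeks (log2 difference 1.04 ± 0.150, adjusted p = 0.0363). Ifi207, of the same family, had 5.49 and 6.24 CPM at 4 weeks, 7.80 and 10.9 CPM at 6 weeks, and 5.42, 4.71 and 4.94 CPM at 8 weeks. It did not pass (adjusted p = 0.069). The family is a cluster of similar genes on chromosome 1, and the split of reads between its members is uncertain. The 27 interferon responsive genes did not share the pattern: 1 was higher and 2 were lower at an unadjusted p under 0.05, with a median log2 difference of -0.05. Muc4, a large membrane mucin of epithelia, had 1.04 and 0.987 CPM at 4 weeks, 2.60 and 2.47 CPM at 6 weeks, and 0.971, 0.708 and 1.12 CPM at 8 weeks (log2 difference 1.38 ± 0.201, adjusted p = 0.0363). These are 84 and 92 counts at 6 weeks, against 23 to 39 at the other ages. The 6-week libraries agreed closely with each other and lay apart from the other 5.

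Rhob and Spsb1 were also highest at 6 weeks, but the step from 4 weeks did not pass by itself. Rhob encodes a small GTPase that is induced quickly by growth factors and stress. It had 25.0 and 29.3 CPM at 4 weeks, 39.3 and 31.6 CPM at 6 weeks, and 12.6, 14.2 and 11.7 CPM at 8 weeks, without overlap between ages (log2 difference 0.92 ± 0.114, adjusted p = 0.0173). Against 4 weeks its log2 difference was 0.38, with a 95% interval of 0.08 to 0.69 and an adjusted p of 0.119. Spsb1, an adaptor of a ubiquitin ligase, had 6.50 and 7.58 CPM at 4 weeks, 10.4 and 8.50 CPM at 6 weeks, and 4.18, 3.94 and 3.75 CPM at 8 weeks (log2 difference 0.83 ± 0.122, adjusted p = 0.0363). Its log2 difference from 4 weeks was 0.42, with an interval of 0.10 to 0.74 and an adjusted p of 0.107. In both genes the main separation was between 8 weeks and the 2 younger ages.

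**Figure D2:**
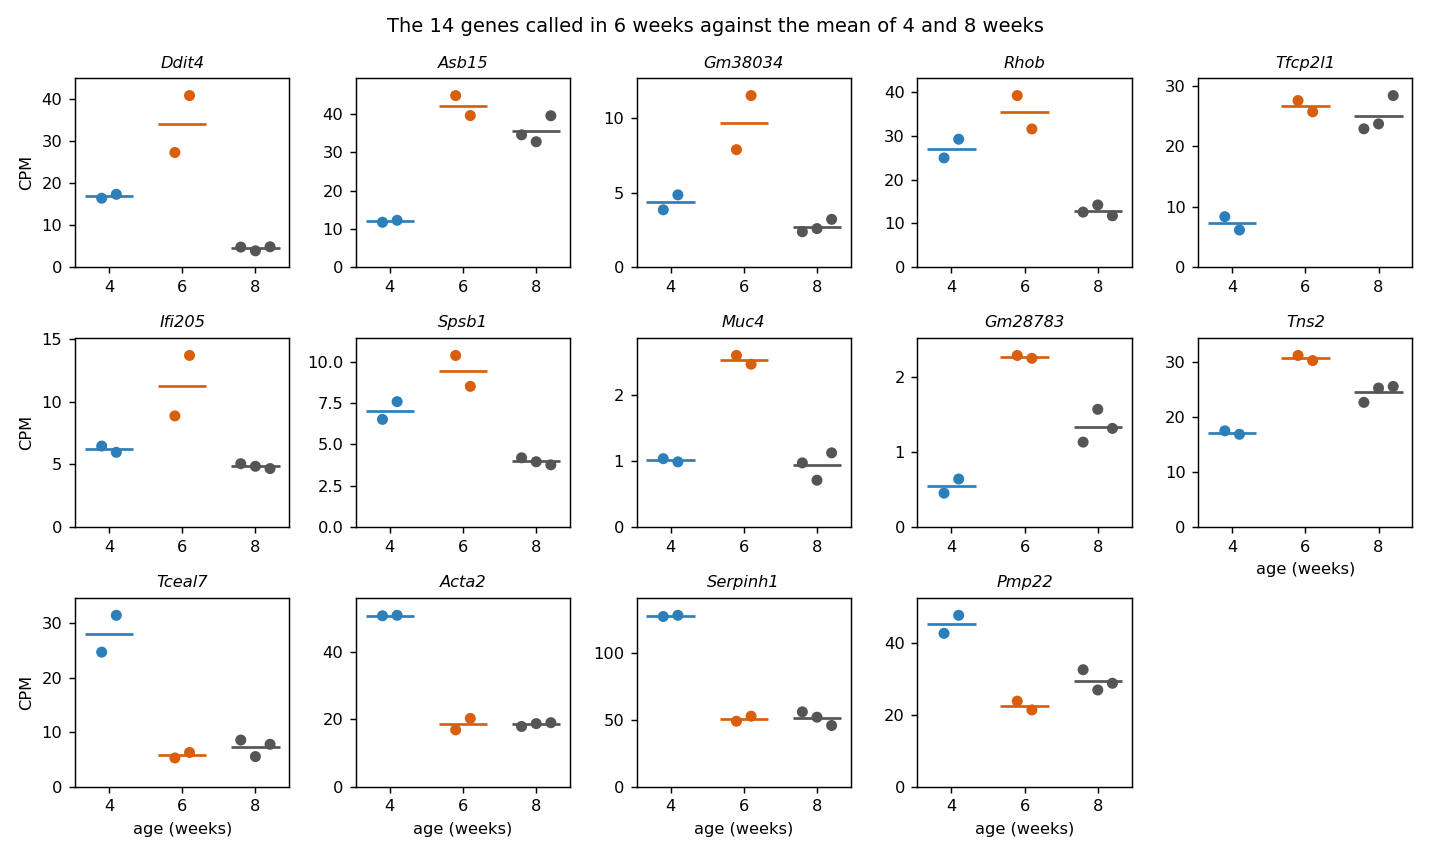
CPM in each library (points) and the mean of each age (bars) for the 14 called genes, with age in weeks on the x axis, the 10 higher genes first and the 4 lower genes last. The panel of Ddit4 shows 27.3 and 40.9 CPM at 6 weeks against at most 17.4 CPM at the other ages, whereas in the panel of Acta2 the 6-week points lie on either side of those of 8 weeks.

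Of the 10 higher genes, 4 had reached or passed the 8-week level by 6 weeks, and the difference between those ages did not pass. Asb15, a muscle-enriched adaptor of ubiquitin ligases with ankyrin repeats and a SOCS box, had 11.7 and 12.2 CPM at 4 weeks, 44.9 and 39.7 CPM at 6 weeks, and 34.6, 32.8 and 39.6 CPM at 8 weeks (log2 difference 1.03 ± 0.0989, adjusted p = 0.00289). Its 6-week libraries lay only just above the others, at 39.7 CPM or more against 39.6 CPM or less, and its log2 difference from 8 weeks was 0.24, with an interval of 0.00 to 0.48 and an adjusted p of 0.404. Tfcp2l1, a transcription factor known from pluripotent cells and the kidney, had 8.33 and 6.13 CPM at 4 weeks, 27.5 and 25.7 CPM at 6 weeks, and 22.9, 23.7 and 28.4 CPM at 8 weeks (log2 difference 0.98 ± 0.124, adjusted p = 0.0173). Its 6-week and 8-week libraries overlapped.

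The long noncoding RNA Gm28783 had 0.451 and 0.640 CPM at 4 weeks, 2.29 and 2.25 CPM at 6 weeks, and 1.13, 1.57 and 1.32 CPM at 8 weeks (log2 difference 1.41 ± 0.212, adjusted p = 0.0385). Tns2, a tensin of focal adhesions, had 17.5 and 16.9 CPM at 4 weeks, 31.3 and 30.3 CPM at 6 weeks, and 22.7, 25.3 and 25.6 CPM at 8 weeks (log2 difference 0.58 ± 0.0883, adjusted p = 0.0385). In both genes the 3 ages did not overlap, with 8 weeks in the middle. The step from 6 to 8 weeks did not pass for either (adjusted p = 0.217 for Gm28783 and 0.222 for Tns2), and the intervals of 6 minus 8 weeks were 0.27 to 1.26 and 0.11 to 0.54 on the log2 scale.

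The 4 lower genes were highest at 4 weeks and lower at both later ages. For Pmp22 the 8-week level lay in the middle. Tceal7, an X-linked member of the transcription elongation factor A-like family, had 24.7 and 31.5 CPM at 4 weeks, 5.29 and 6.30 CPM at 6 weeks, and 8.58, 5.54 and 7.80 CPM at 8 weeks (log2 difference -1.30 ± 0.176, adjusted p = 0.0282). Acta2, the smooth muscle actin that is also made in developing muscle and in myofibroblasts, had 50.7 and 50.8 CPM at 4 weeks, 16.9 and 20.3 CPM at 6 weeks, and 17.9, 18.7 and 19.0 CPM at 8 weeks (log2 difference -0.72 ± 0.1, adjusted p = 0.0317). Its log2 difference of 6 from 8 weeks was 0.00, with an interval of -0.23 to 0.24. Acta2 was called because its 6-week level lay below the midpoint of the ages and not because it left their range.

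Serpinh1, also called Hsp47, the chaperone of collagen in the endoplasmic reticulum, had 127 and 128 CPM at 4 weeks, 48.9 and 52.6 CPM at 6 weeks, and 55.9, 51.9 and 45.7 CPM at 8 weeks (log2 difference -0.67 ± 0.101, adjusted p = 0.0385). Its interval of 6 minus 8 weeks was -0.24 to 0.22. Pmp22, a membrane protein of compact peripheral myelin that other cells also make, had 42.8 and 47.9 CPM at 4 weeks, 23.9 and 21.4 CPM at 6 weeks, and 32.7, 27.0 and 28.9 CPM at 8 weeks (log2 difference -0.69 ± 0.108, adjusted p = 0.048). Pmp22 was the 1 lower gene whose 6-week libraries lay below all 5 others. Its log2 difference from 8 weeks was -0.38 (interval -0.63 to -0.13, adjusted p = 0.231). Tfcp2l1, Tceal7 and Serpinh1 fell outside the rule for named genes and were chosen after their values were seen.

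Several of these calls rested on single libraries. Asb15 lost the call without replicate 1 at 6 weeks (adjusted p = 0.0578). Rhob lost it without replicate 1 at 4 weeks (0.0529) or replicate 1 at 6 weeks (0.205). Tfcp2l1 and Tceal7 lost it without replicate 1 at 6 weeks (0.188 and 0.211) or replicate 2 at 6 weeks (0.0744 and 0.109). Ifi205 lost it without replicates 1 or 2 at 4 weeks, replicate 2 at 6 weeks or replicate 1 at 8 weeks, with 0.246 as the highest adjusted p, and Spsb1 without replicate 1 at 4 weeks, either 6-week library or replicate 1 at 8 weeks, with 0.294 as the highest. Muc4, Gm28783, Serpinh1, Tns2, Pmp22 and Acta2 were each called in 2 of the 7 such fits, those without replicate 2 or replicate 3 at 8 weeks. No call was lost when either of these 8-week libraries was left out, and no gene of the 14 changed direction in any fit.

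Among genes with a 6-week mean outside both ages that did not pass the combined contrast, the 10 higher ones with the smallest p were Klf2, Gm14236, Uckl1os, Bcl6, Gm37194, E230001N04Rik, Col7a1, Gm28653, Pdp1 and Ifi207, with adjusted p of 0.0564 to 0.069. Klf2, a transcription factor that blood flow induces in endothelium, had 6.34 and 5.87 CPM at 4 weeks, 14.3 and 9.06 CPM at 6 weeks, and 2.80, 5.02 and 2.98 CPM at 8 weeks (log2 difference 1.31 ± 0.210, adjusted p = 0.0564). Bcl6, a transcriptional repressor, had 23.1 and 22.4 CPM at 4 weeks, 41.5 and 31.9 CPM at 6 weeks, and 25.4, 22.9 and 25.1 CPM at 8 weeks (log2 difference 0.64 ± 0.108, adjusted p = 0.0634). In both genes the first 6-week library was the higher, the reverse of Ddit4 and Ifi205. Gm14236, a transcript antisense to Ripor3 in a count that used strand, had 21.7 and 19.8 CPM at 4 weeks, 33.1 and 29.7 CPM at 6 weeks, and 16.6, 20.3 and 14.6 CPM at 8 weeks, and its log2 differences of 0.60 from 4 weeks and 0.87 from 8 weeks had adjusted p of 0.0335 and 0.0291.

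Gm28653 is a long noncoding RNA at 20669882 to 20684298 on the plus strand of chromosome 1 (GRCm38) whose span holds Mir206 and Mir133b, a pair of muscle microRNA genes on the same strand. It had 2.52 and 1.63 CPM at 4 weeks, 2.82 and 7.08 CPM at 6 weeks, and 0.243, 0.277 and 0.995 CPM at 8 weeks (log2 difference 2.30 ± 0.399, adjusted p = 0.0634). Against 8 weeks by itself it passed (log2 difference 3.33, adjusted p = 0.0287), and against 4 weeks it did not (adjusted p = 0.127). The 6-week libraries held 91 and 264 counts of it, against 9, 9 and 31 at 8 weeks. Mature microRNAs were not measured in these libraries.

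The 10 lower genes with the smallest p that did not pass were Meox2, Fat3, Mki67, Tubb4b, Ccnd1, Nrp1, Elovl5, Gatm, Slc16a6 and Dstn, with adjusted p of 0.0571 to 0.0945. Meox2, a homeobox factor of limb muscle and vessels, had 16.4 and 17.1 CPM at 4 weeks, 8.23 and 7.78 CPM at 6 weeks, and 11.5, 9.15 and 11.8 CPM at 8 weeks (log2 difference -0.75 ± 0.122). Mki67, a marker of dividing cells, had 4.30 and 8.4 CPM at 4 weeks, 0.557 and 1.05 CPM at 6 weeks, and 1.91, 1.36 and 1.48 CPM at 8 weeks (log2 difference -1.96 ± 0.339). Tubb4b, a tubulin, had 78.1 and 78.8 CPM at 4 weeks, 43.4 and 53.2 CPM at 6 weeks, and 67.7, 66.1 and 77.3 CPM at 8 weeks (log2 difference -0.62 ± 0.109). All 3 were lowest at 6 weeks without overlap. Across all genes tested, both 6-week libraries lay above the other 5 for 708 genes (4.73%) and below them for 788 (5.26%). A lack of overlap by itself is a description and was not tested.

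Lists of genes were then described by how many members had an unadjusted p under 0.05, beside 5.9% higher and 6.26% lower over all genes tested. Of 24 immediate early genes tested, 9 were higher and none lower, and none was called after adjustment. The median log2 difference was 0.52, made up of 0.11 from 4 weeks and 0.89 from 8 weeks. Klf4 had 7.80 and 8.67 CPM at 4 weeks, 16.2 and 13.6 CPM at 6 weeks, and 6.37, 9.86 and 5.84 CPM at 8 weeks (adjusted p = 0.0703). Nr4a1, an orphan nuclear receptor induced by exercise, had 50.2 and 69.9 CPM at 4 weeks, 101 and 86.1 CPM at 6 weeks, and 40.4, 56.7 and 50.7 CPM at 8 weeks (adjusted p = 0.0791). Zfp36, which speeds the decay of inflammatory mRNAs, had 8.57 and 11.7 CPM at 4 weeks, 21.0 and 17.8 CPM at 6 weeks, and 5.12, 9.43 and 3.75 CPM at 8 weeks (adjusted p = 0.08). Fosl2 and Egr1 also lay above the other libraries in both 6-week libraries.

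The 8-week libraries were not alike in these genes. Relative to the mean of the 3 ages, the median of the immediate early genes was -0.04 and 0.35 at 4 weeks, 0.62 and 0.16 at 6 weeks, and -0.84, 0.13 and -0.87 at 8 weeks on the log2 scale. Fos had 22.7 and 71.7 CPM at 4 weeks, 60.6 and 52.1 CPM at 6 weeks, and 9.71, 57.8 and 1.83 CPM at 8 weeks. The second 8-week library was near the 6-week level. Without it 17 of the 24 genes were higher, beside 7.65% of all genes in that fit. Without replicate 1 at 6 weeks 5 were, beside 2.83% of all genes. Without replicate 1 at 4 weeks or replicate 1 at 8 weeks 4 were, beside 5.44% and 4.92% of all genes. Whether handling or time of day differed between the mice was not tested.

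Glucocorticoid and fasting responsive genes included 10 of 28 that were higher and 1 that was lower, with Ddit4 as the 1 called member and a median log2 difference of 0.23. Without replicate 2 at 6 weeks the median was 0.14. Without replicate 1 at 8 weeks 8 were higher, beside 4.92% of all genes, and the median was 0.15. Per1, a clock gene that glucocorticoids induce, had 25.6 and 33.1 CPM at 4 weeks, 46.1 and 42.8 CPM at 6 weeks, and 28.1, 26 and 32.2 CPM at 8 weeks (log2 difference 0.61, adjusted p = 0.0843). Fkbp5, an inhibitor of the glucocorticoid receptor, had 12.8 and 13.1 CPM at 4 weeks, 17.6 and 29.1 CPM at 6 weeks, and 13.4, 17.6 and 18.2 CPM at 8 weeks (adjusted p = 0.147). Cebpd had 17.4 and 16.8 CPM at 4 weeks, 17.2 and 15.6 CPM at 6 weeks, and 6.37, 7.95 and 6.68 CPM at 8 weeks, so its 6-week level was that of 4 weeks (adjusted p = 0.0698). The clock as a whole had 3 of 19 members higher, none lower and a median of -0.01.

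The Asb family and other ubiquitin ligases of muscle atrophy had 10 of 25 members higher and none lower, and Asb15 was the 1 called. Their median log2 difference was 0.38 from 4 weeks and -0.09 from 8 weeks, so most of the list had the shifted shape. Without replicate 1 at 6 weeks the median difference from the mean of both ages was 0.09, against 0.19 with all libraries. Asb11 lay above all other libraries at 6 weeks, with 38.0 and 30.4 CPM at 4 weeks, 63.1 and 64.3 CPM at 6 weeks, and 55.5, 53.7 and 46.2 CPM at 8 weeks (log2 difference 0.60, adjusted p = 0.0698). Asb10 had 26.8 and 22.9 CPM at 4 weeks, 53.1 and 53.7 CPM at 6 weeks, and 54.6, 55.7 and 53.1 CPM at 8 weeks (adjusted p = 0.0634). Of 15 antigen presentation genes, 6 were higher and none lower, led by Cd74 and H2-Ab1, again with levels at 6 weeks close to those at 8 weeks. Without replicate 1 at 6 weeks no gene of the list was higher at that level, beside 2.83% of all genes, and without replicate 2 at 4 weeks 3 were, beside 4.79%.

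**Figure D3:**
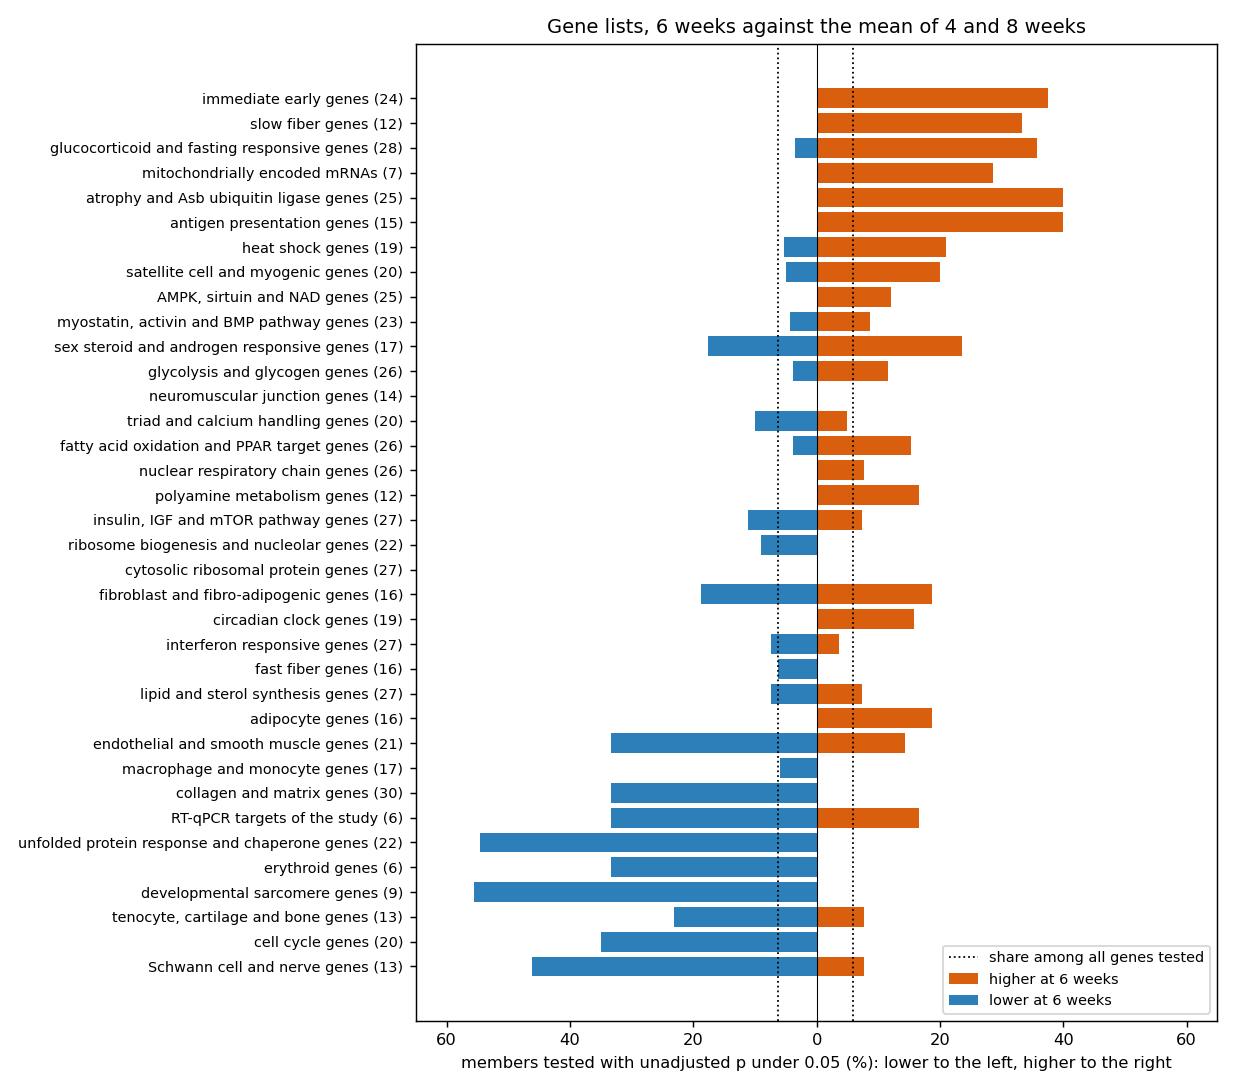
Share of the tested members of 36 gene lists with an unadjusted p under 0.05 in 6 weeks against the mean of 4 and 8 weeks (x axis, percent; lower to the left, higher to the right), ordered by the median difference, with the number tested in parentheses. Dotted lines mark 6.26% lower and 5.9% higher, the shares over all genes tested. Bars reach furthest for immediate early, atrophy and antigen presentation genes on the right and for developmental sarcomere and chaperone genes on the left.

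Genes of the unfolded protein response and of folding in the endoplasmic reticulum had the largest share of lower members among the lists of more than 20 tested genes: 12 of 22 were lower, none higher and none called. The summed level of the list was 766 to 778 CPM at 4 weeks, 599 to 613 CPM at 6 weeks and 627 to 684 CPM at 8 weeks. Calr, a calcium-binding chaperone of glycoproteins, had 77.5 and 80.7 CPM at 4 weeks, 59.9 and 59.0 CPM at 6 weeks, and 75.2, 78.9 and 63.5 CPM at 8 weeks (log2 difference -0.35, adjusted p = 0.224). Canx, its membrane-bound partner, had 92.7 and 95.3 CPM at 4 weeks, 72.1 and 71.2 CPM at 6 weeks, and 86.7, 73.5 and 77.9 CPM at 8 weeks (adjusted p = 0.294). Both were lowest at 6 weeks without overlap, as were 6 of the 22 members in all, beside 5.26% of all genes tested. Hspa5, the main chaperone of the compartment, had 136 and 137 CPM at 4 weeks, 89.6 and 95.9 CPM at 6 weeks, and 96.3, 96.6 and 82.9 CPM at 8 weeks, and so did not lie outside both ages. The 6-week means of Pdia6, Manf and Hsp90b1 also lay between those of 4 and 8 weeks. With library totals 1 of the 22 was lower, beside 2.42% of all genes. Without replicate 1 at 6 weeks 4 were lower, beside 3.50% of all genes, and without replicate 2 at 6 weeks 5 were, beside 4.27%. The median log2 difference of the list was -0.26 with all libraries and -0.17, -0.22 and -0.26 in these 3 fits.

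Many genes of this list carry the endoplasmic reticulum stress response element, CCAAT followed after 9 bases by CCACG. It was found within 250 bases upstream of the start, on either strand, in 7 of the 19 list members with a RefSeq window and in 0.155% of all tested genes with one. The list was made of known targets of this response, so the count describes the list and not its level at 6 weeks. Calr and Canx are shown, with both ends of the element in capitals, at chr8:84846935-84847181 on the minus strand of chromosome 8 and chr11:50325674-50325923 on the minus strand of chromosome 11 (GRCm38.p6).
Calr: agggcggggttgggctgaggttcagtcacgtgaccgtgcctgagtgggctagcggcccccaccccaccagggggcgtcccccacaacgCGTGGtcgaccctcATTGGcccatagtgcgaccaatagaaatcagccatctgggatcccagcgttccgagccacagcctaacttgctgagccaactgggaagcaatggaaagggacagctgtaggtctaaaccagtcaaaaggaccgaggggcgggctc
Canx: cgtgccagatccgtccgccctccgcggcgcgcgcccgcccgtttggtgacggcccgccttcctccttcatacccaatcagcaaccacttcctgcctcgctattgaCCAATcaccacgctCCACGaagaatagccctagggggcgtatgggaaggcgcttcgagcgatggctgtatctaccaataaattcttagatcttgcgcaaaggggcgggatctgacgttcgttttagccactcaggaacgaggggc
In Calr the element runs on the opposite strand to the gene, and in Canx on the same strand. None of the 12 called genes with a window held it.

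Schwann cell and nerve genes had 6 of 13 members lower and 1 higher, with a median log2 difference of -0.49 and Pmp22 called. Without replicate 2 at 6 weeks 3 were lower, with a median of -0.25, beside 4.27% of all genes. The higher member was Egr2, which is also an immediate early gene. Mbp, a main protein of myelin, had 12.4 and 12.1 CPM at 4 weeks, 9.998 and 6.65 CPM at 6 weeks, and 10.8, 11.1 and 11.3 CPM at 8 weeks (adjusted p = 0.224). The summed level of the 13 genes was 92.0 to 93.4 CPM at 4 weeks, 47.2 to 59.3 CPM at 6 weeks and 62.2 to 68.3 CPM at 8 weeks. The 6-week libraries were thus the lowest without overlap, in the sum as in 5 of the 13 single members, beside 5.26% of all genes tested. Pmp22 is among these members and made up 42.8 and 47.9 CPM of the sum at 4 weeks and 23.9 and 21.4 CPM at 6 weeks. The sum therefore partly restates the call of Pmp22 and is no separate support. How much nerve each muscle sample held was not tested.

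The endothelial and smooth muscle list moved in both directions, with 7 of 21 members lower and 3 higher and a median log2 difference of -0.12. Its summed level was 1512 to 1585 CPM at 4 weeks, 1617 to 1805 CPM at 6 weeks and 1592 to 1839 CPM at 8 weeks. The summed level was thus not lowest at 6 weeks. A sum follows its most abundant members, and Des, a higher member, is also on the satellite cell and myogenic list. The sum therefore need not describe the vessel members. The lower members of the list were led by Acta2 and included receptors of vessel growth. Kdr, the main receptor for VEGF, had 35.3 and 33.7 CPM at 4 weeks, 23.0 and 16.7 CPM at 6 weeks, and 36.9, 38.6 and 26.3 CPM at 8 weeks (log2 difference -0.79, adjusted p = 0.102). Pecam1, an adhesion molecule of endothelium, had 50.3 and 64.7 CPM at 4 weeks, 32.2 and 34.2 CPM at 6 weeks, and 41.5, 42.8 and 38.2 CPM at 8 weeks (adjusted p = 0.102). Apln, a ligand released by sprouting endothelium, had 3.03 and 5.47 CPM at 4 weeks, 0.867 and 1.07 CPM at 6 weeks, and 1.73, 1.39 and 1.25 CPM at 8 weeks (adjusted p = 0.102). Nrp1, a coreceptor for VEGF that is not on the list, had 57.9 and 55.9 CPM at 4 weeks, 37.2 and 37.8 CPM at 6 weeks, and 49.5, 48 and 44.6 CPM at 8 weeks (adjusted p = 0.0811). In each of these the 6-week libraries lay below all others. The higher members were Klf2, Klf4 and Des, and Flt1 and Vwf had unadjusted p of 0.0533 and 0.144.

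**Figure D4:**
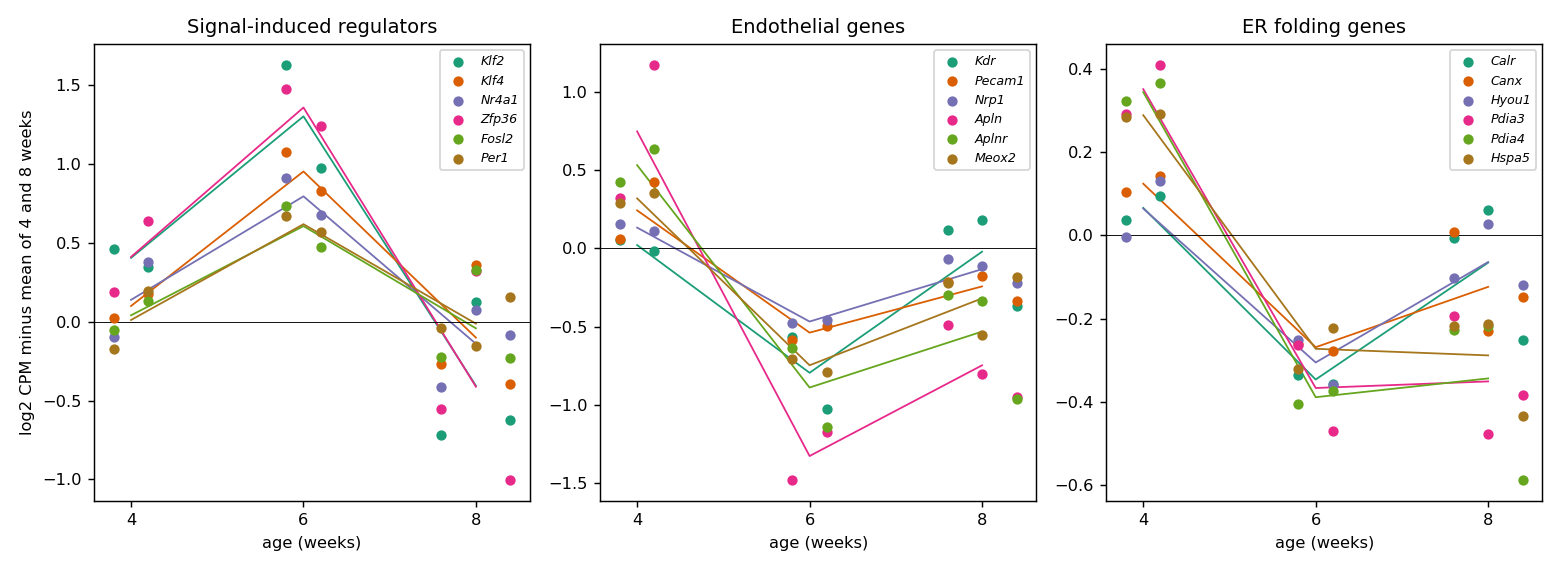
Log2 CPM of single libraries (points) and means of each age (lines), relative to the mean of 4 and 8 weeks, against age in weeks for genes chosen after their values were seen: immediate early and related regulators (left), endothelial genes (middle) and genes of folding in the endoplasmic reticulum (right). None of the genes plotted passed the adjusted threshold. The regulators plotted peak at 6 weeks, and the endothelial genes plotted are lowest there. The endothelial and smooth muscle list as a whole moved in both directions, with 7 of 21 members lower and 3 higher. Klf2 and Klf4, drawn at the left, are among its higher members. Hspa5 and Pdia3 stay low at 8 weeks whereas Calr is higher again.

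Genes of cell division, matrix and early development had no higher members at an unadjusted p under 0.05. Of 20 cell cycle genes 7 were lower, of 30 collagen and matrix genes 10, and of 9 developmental sarcomere genes 5. Their median log2 differences from 8 weeks were -0.15, 0.24 and 0.04, against -0.96, -0.61 and -0.82 from 4 weeks. The 6-week mean lay below both ages for 10 of the 20 cell cycle genes, 4 of the 30 collagen and matrix genes and 3 of the 9 developmental sarcomere genes. Without replicate 1 at 6 weeks 4 collagen and matrix genes and 2 developmental sarcomere genes were lower, beside 3.50% of all genes, and without replicate 2 at 4 weeks or replicate 2 at 6 weeks 3 developmental sarcomere genes were. Slow fiber genes had 4 of 12 members higher and none lower, with medians of 0.05 from 4 weeks and 0.59 from 8 weeks. The count was 9 of 12 without replicate 2 at 8 weeks, beside 7.65% of all genes. It was 1 of 12 without replicate 1 at 8 weeks, beside 4.92%. Without replicate 3 at 8 weeks 2 were higher and 1 was lower, beside 7.76% and 7.38%. The median log2 difference from the mean of both ages was 0.34 with all libraries. It was 0.28 and 0.35 without replicates 1 and 2 at 4 weeks, and 0.39 and 0.23 without replicates 1 and 2 at 6 weeks. Myh7, the slow myosin, had 86.5 and 133 CPM at 4 weeks, 139 and 128 CPM at 6 weeks, and 54.4, 114 and 69.4 CPM at 8 weeks (adjusted p = 0.406), so the second 8-week library again stood nearer to 6 weeks. Of 27 cytosolic ribosomal protein genes none had an unadjusted p under 0.05, and of 14 neuromuscular junction genes none. For macrophage and monocyte genes 1 of 17 was lower, with a summed level of 160 to 175 CPM at 4 weeks, 125 to 138 CPM at 6 weeks and 103 to 146 CPM at 8 weeks. Lymphocyte and neutrophil genes were mostly under the count filter, with 2 of 18 tested.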

How the data were processed

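Gastrocnemius RNA from 7 male mice was depleted of ribosomal RNA and sequenced as stranded single-end reads of 100 bases. The authors used Trimmomatic for trimming, STAR for alignment (GRCm38) and strand-specific featureCounts for counts by gene name. These deposited counts, not normalized, were the values used. The authors' fold changes, p-values and pathway tables were not used.

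The analysis used edgeR 4.0.16 (R 4.3.3): filterByExpr (minimum count 10; 14976 of 49568 genes), TMM factors, 1 mean per age, the quasi-likelihood F test of 6 weeks against the equally weighted mean of 4 and 8 weeks, and Benjamini-Hochberg adjustment across the tested genes (threshold 0.05). The standard error is the log2 difference divided by the square root of F. The residual degrees of freedom were 4, the prior degrees of freedom 7.3 and the common dispersion 0.0141. The 95% intervals are not adjusted. Nothing but the labels separates the mice of an age, and p-values measure the spread between these libraries. Depth was 30836057 to 41784144 counts per library.

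Named genes were those called, outside both ages and without overlap (up to 15 per direction, at least 1 CPM), those past the threshold against both ages (up to 30), up to 4 called members per direction of each list, and, where fewer passed, the 10 next by p in each direction. Values of further genes, among them members of the lists, were chosen after being seen. The members and the 38 lists were chosen with earlier results of these data known. A total of 26 symbols turned into dates (0.0532% of counts) were not named. Positions are from GENCODE and upstream sequences from RefSeq, both of GRCm38. Alternatives covered scaling by library totals, upper quartiles or DESeq2 size factors, further tests (DESeq2 1.42.0 Wald, limma-voom 3.58.1, robust edgeR), other filters, the 10 most abundant genes left out, equal weight per library, a replicate block, other thresholds and each library left out. The code was tested on simulated data.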

Additional observations from a re-analysis of the deposited data

How the results depend on the processing

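The values below are genes called against the mean of both ages, those of them with a 6-week mean outside both ages, and genes past the threshold against each age, which were 14, 13 and 5. They became 29, 25 and 8 with upper quartile factors, 39, 38 and 13 with library totals, 144, 129 and 27 with DESeq2's Wald test, 249, 225 and 47 with no filter on low counts, 3, 3 and 1 at an adjusted p under 0.01, and 66, 61 and 22 at an adjusted p under 0.1. Robust edgeR gave 27 and 24 for the first 2 numbers. DESeq2 size factors, limma-voom, at least 10 counts in every library, leaving out the 10 most abundant genes and equal weight per library stayed within 1.5 times in all 3, although the last lost 6 of the 14 genes, among them all 4 lower ones. Leaving out each library in turn gave 4 to 137, 4 to 128 and 1 to 23 genes, with the highest without replicate 3 at 8 weeks. The 14 genes kept their direction in all 18 alternative fits, and no other named gene was reversed. Library totals moved the median log2 difference by 0.0879 and lost Serpinh1, Pmp22 and Acta2.

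A replicate block, which pairs libraries by number, gave 185, 169 and 30 genes. The deviations of same-numbered libraries from their group means correlated from -0.0927 to 0.0428. With 2 libraries at 4 weeks and 2 at 6 weeks, the deviations within each age mirror each other. Both pairs of 4 and 6 weeks therefore gave the same value, 0.0428. The correlations are a weak check, and the numbers were taken not to pair the mice. The spread was estimated with 2 libraries at 6 weeks and 4 residual degrees of freedom, and the cause of the larger counts under other tests was not tested.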

Other observations

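Myod1, the myogenic transcription factor, had 3.56 and 2.93 CPM at 4 weeks, 6.56 and 4.96 CPM at 6 weeks, and 1.86, 3.08 and 3.43 CPM at 8 weeks, with both 6-week libraries above the others (log2 difference 0.94, adjusted p = 0.113). At an unadjusted p under 0.05, 5.9% of all genes tested were higher and 6.26% lower. In the satellite cell and myogenic list 4 of 20 members were higher and 1 was lower at that level. Among 19 heat shock genes 4 were higher and 1, Hspa8, was lower. Hspa8 had 522 and 464 CPM at 4 weeks, 326 and 342 CPM at 6 weeks, and 364, 415 and 361 CPM at 8 weeks (adjusted p = 0.181), whereas Dnajb1 and Cryab lay above the other libraries in both 6-week libraries. Of 7 mitochondrially encoded mRNAs tested, mt-Nd4 and mt-Cytb were higher. mt-Nd4 had 2005 and 1414 CPM at 4 weeks, 2580 and 2171 CPM at 6 weeks, and 1479, 1054 and 1846 CPM at 8 weeks (adjusted p = 0.267). These genes were chosen after their values were seen. The median log2 differences of the myogenic, heat shock and mitochondrial lists were 0.08, 0.14 and 0.22 with all libraries. Without replicate 1 at 6 weeks they were 0.04, 0.04 and 0.12.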
